A study of Mus musculus with 2 samples.

Results

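The genes described here are 5 members of the interleukin-1 (IL-1) system, Il1a, Il1b, Il1f9, Il1rn and Il1r2. They were chosen by symbol from the 27998 genes of the count tables, and all 5 had a row in both tables. Their transcripts were followed across monocyte, macrophage and neutrophil groups in single cells sorted as F4/80+CD11b+ from the alveolar bone of 8-week-old male C57/B6J mice. The control library came from mice without orthodontic force. The OTM library came from mice in which a nickel-titanium coil spring had pulled on the left first molar for 7 days (orthodontic tooth movement). No group carried a transgene or a deleted allele. Each condition was 1 library. The methods give the number of mice divided between the groups for sequencing, but not how many were pooled in each library. There is therefore no replicate check of any difference below, no p-value was computed, and every interval covers counting error only. Whether a difference came from the force, from the animals or from the library preparation cannot be told apart.

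IL-1α and IL-1β, the products of Il1a and Il1b, are inflammatory cytokines that bind the signalling receptor encoded by Il1r1 together with its accessory chain encoded by Il1rap. Il1rn encodes the IL-1 receptor antagonist, which occupies that receptor without a signal. Il1r2 encodes the decoy receptor, which binds IL-1 but lacks the signalling domain. Il1f9 encodes IL-36γ, a related cytokine that signals through the receptor encoded by Il1rl2. In bone, IL-1 is known as a promoter of osteoclast formation and activity.

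In the GENCODE annotation of the mouse build mm10 (GRCm38), 4 of the genes lie on chromosome 2 and Il1r2 lies on chromosome 1. Il1a spans chr2:129299610-129309972 and Il1b spans chr2:129364570-129371139, both on the minus strand and separated by 54597 bases. Il1f9 spans chr2:24186476-24193568 and Il1rn spans chr2:24336853-24351494, both on the plus strand and 143284 bases apart. Il1r2 spans chr1:40074079-40125231 on the plus strand. The bases just upstream of the start of Il1a, Il1b and Il1f9 (RefSeq, GRCm38.p6) are printed because Il1a and Il1b are neighbours on the chromosome and had a similar pattern over the clusters, whereas Il1f9 followed the neutrophil groups. Each line gives 100 bases in the direction of transcription, and capitals mark motif matches.
Il1a, chr2:129309973-129310072, minus strand: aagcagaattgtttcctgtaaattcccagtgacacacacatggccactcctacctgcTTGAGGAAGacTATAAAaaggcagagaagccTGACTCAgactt
Il1b, chr2:129371140-129371239, minus strand: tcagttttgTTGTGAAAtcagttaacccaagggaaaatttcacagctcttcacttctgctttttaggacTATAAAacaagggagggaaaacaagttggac
Il1f9, chr2:24186376-24186475, plus strand: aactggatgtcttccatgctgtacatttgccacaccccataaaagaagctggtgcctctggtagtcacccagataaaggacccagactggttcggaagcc
The letters searched in the 250 bases upstream of 32841 RefSeq starts were TTNNGNAA for C/EBP, GAGGAAG for PU.1 and TGANTCA for AP-1 on both strands, the NF-kB motif of 10 bases on both strands, and TATAAA on the strand of the gene. TATAAA was found 27 to 32 bases before the start of Il1a and 26 to 31 bases before that of Il1b, and 7.59% of all windows held it. The AP-1 letters stood 6 to 12 bases before the start of Il1a (6.75% of all windows). The C/EBP and PU.1 letters of Il1a overlapped each other, and they were held by 36.9% and 10.6% of all windows, respectively. The C/EBP letters stood 84 to 91 bases before the start of Il1b. The NF-kB letters (7.25% of all windows) were found in none of the windows of the 5 genes, and Il1f9 and Il1r2 held no match to any of the motifs. The Il1r2 window, chr1:40085843-40086092, lay inside the gene span given above, so the bases upstream of that span were not searched. Il1rn had windows at several RefSeq starts, which held AP-1 or C/EBP letters. A match is a description of letters, not of factor binding.

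After the filter on cells, 2835 control and 2052 OTM cells remained, with a median of 3998 and 6861.5 unique molecular identifiers (UMIs, 1 count per captured transcript) per cell. The OTM cells were thus the deeper ones, so shares of cells with a transcript are also given after each cell was thinned to 1500 UMIs. The libraries shared 6 cell barcodes. Clustering, in which the 5 genes were not among the features, gave 11 clusters, of which 10 could be named from marker genes. The neutrophil-like class had 1177 control and 934 OTM cells (an immature and 2 mature clusters), the monocyte-like class 1455 and 1013 cells (classical, MHC class II-high, nonclassical, and a cycling cluster whose 10 leading genes held none of the classical markers it was named from), and the macrophage-like class only 62 and 28 cells. The sort was for F4/80, yet Adgre1, which encodes it, was at 7.64 CPM (UMIs of the gene per 1000000 UMIs of the group) in the control and 4.57 CPM in the OTM neutrophil-like cells, against 85.6 and 93.4 CPM in the monocyte-like cells. The median share of UMIs from S100a8 and S100a9, the most abundant neutrophil transcripts, was 32.7% and 29.1% in neutrophil-like cells and 0.419% and 0.558% in monocyte-like cells, but 8.12% and 14.2% in the nonclassical cluster among the latter. Levels and ratios of the 5 genes in monocyte-like and macrophage-like cells are therefore also given for cells with at most 1% S100a8 and S100a9.

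Il1b had the most UMIs of the 5 genes in monocyte-like cells, 14379 in the control and 55961 in the OTM library. In the control library it was at 2320 CPM in classical monocyte-like cells (95% Poisson interval 2267 to 2373), at 2493 CPM in the MHC class II-high cluster, at 1923 CPM in the nonclassical cluster and at 672 CPM in cycling classical cells. In the OTM library the same clusters were at 7847, 7543, 4309 and 3237 CPM. Among neutrophil-like cells, Il1b was at 262 CPM in the control and 386 CPM in the OTM immature cluster, at 813 and 1384 CPM in the larger mature cluster, and at 2738 and 5464 CPM in the smaller mature cluster, whose leading genes included the stefin genes Stfa2 and Stfa2l1 and which is called stefin-high here. The stefin-high neutrophils thus held the highest Il1b level of all clusters in the control library and came after classical and MHC class II-high monocyte-like cells in the OTM library. The intervals of these leading clusters did not overlap in either library. Macrophage-like cells were at 729 CPM in the control and 2611 CPM in the OTM library. Granulocyte progenitor-like cells, the lowest of the 9 clusters compared, were at 85.8 and 358 CPM.

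**Figure D1:**
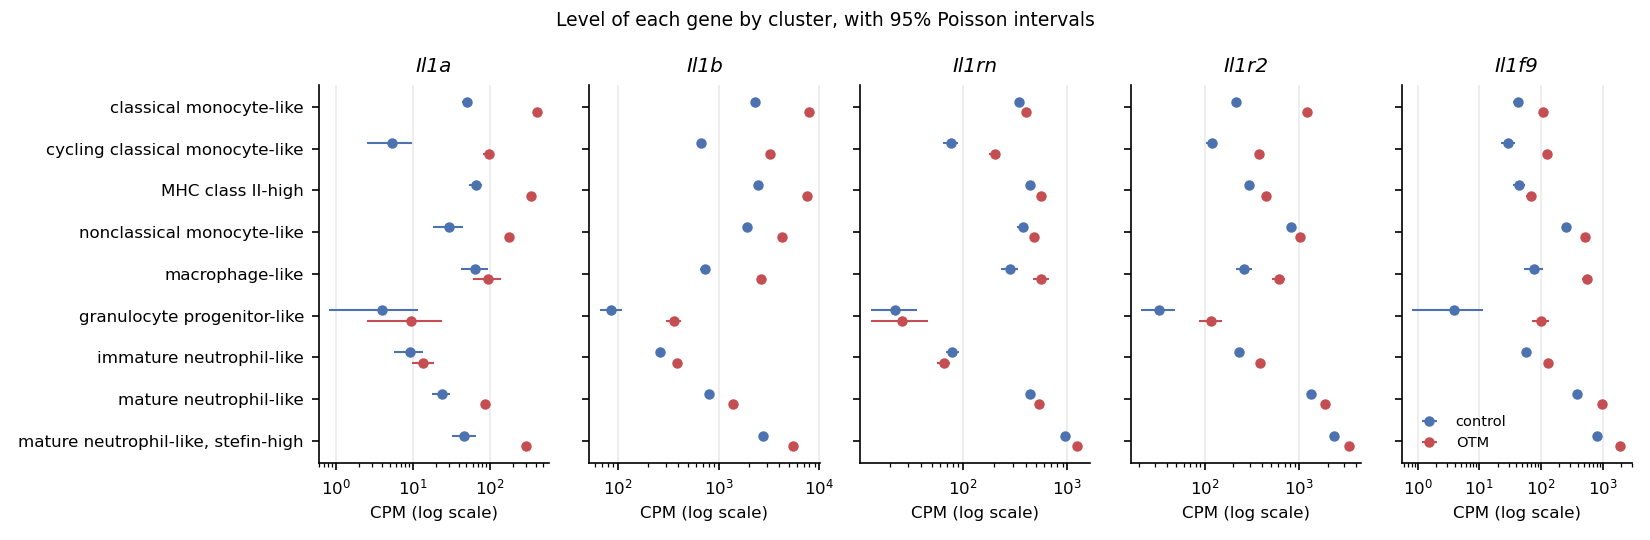
Level of each of the 5 genes (x axis, CPM on a log scale) in 9 named clusters (y axis) of the control (blue) and OTM (red) library, with 95% Poisson intervals. Il1a and Il1b were highest in classical monocyte-like OTM cells (409 and 7847 CPM), whereas Il1rn, Il1r2 and Il1f9 were highest in stefin-high mature neutrophil-like OTM cells (1249, 3394 and 1946 CPM).

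The difference in Il1b was one of transcripts per cell as well as of the share of cells. With each cell at 1500 UMIs, 66.4% of control and 91.2% of OTM classical monocyte-like cells had an Il1b UMI, and the median cell held 2 and 11 UMIs. At least 10 Il1b UMIs were found in 11.4% of the control and 56.7% of the OTM cells, and at least 20 in 0.669% and 20.5%. In stefin-high neutrophils the median cell held 3 and 7 UMIs, and at least 10 UMIs were found in 12.6% and 34.4%. The highest count in one unthinned cell was 127 UMIs in the control and 262 UMIs in the OTM library, both in monocyte-like cells. The 10% of monocyte-like cells with the most Il1b held 41.5% of its UMIs in the control and 26.7% in the OTM library.

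**Figure D2:**
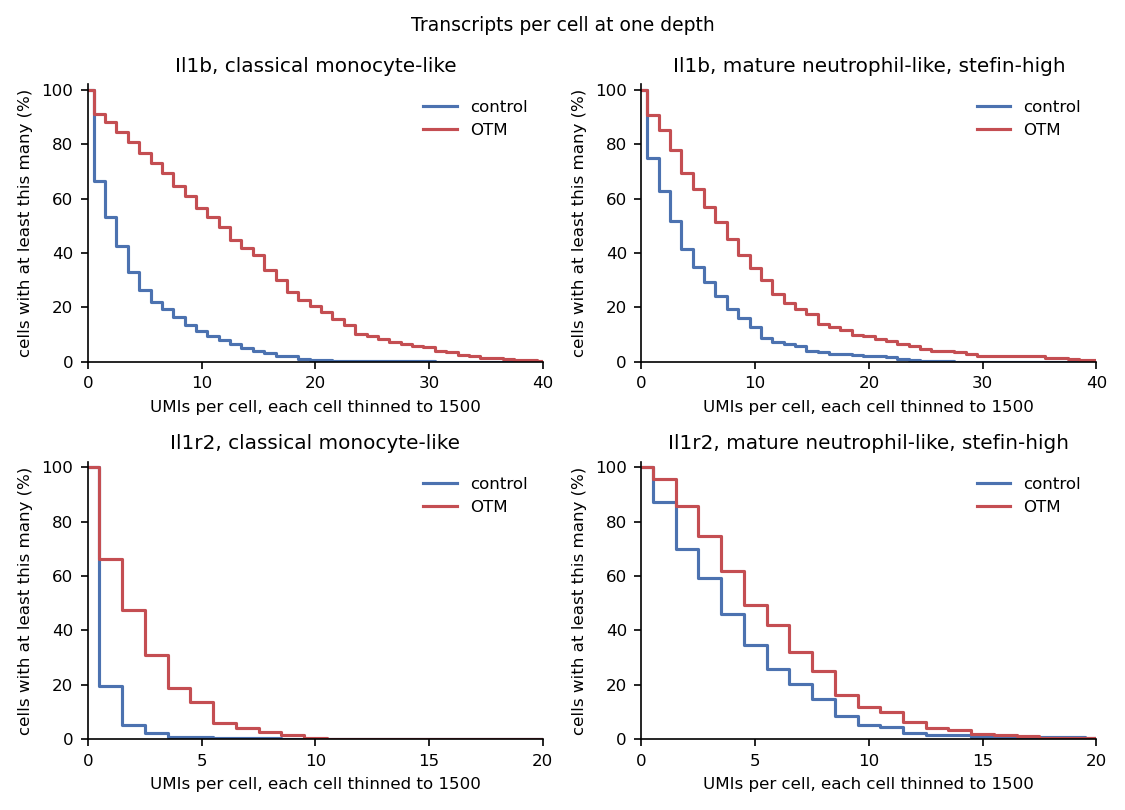
Share of cells (y axis, %) with at least the number of UMIs on the x axis, for Il1b (top) and Il1r2 (bottom) in classical monocyte-like (left) and stefin-high mature neutrophil-like cells (right), each cell thinned to 1500 UMIs, for control (blue) and OTM (red). The largest gap between the curves was in classical monocyte-like cells, where the median cell held 2 and 11 Il1b UMIs.

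Il1a had the largest ratio between the libraries of the 5 genes in monocyte-like and in neutrophil-like cells. It was at 51.1 CPM in control and 409 CPM in OTM classical monocyte-like cells (163 and 1644 UMIs), a ratio of 8.00 (95% interval 6.81 to 9.46). In the MHC class II-high cluster it was at 65.9 and 348 CPM, in the nonclassical cluster at 29.5 and 181 CPM, and in cycling classical cells at 5.36 and 98.3 CPM, the last from only 10 control UMIs. Stefin-high neutrophils were at 47.0 and 298 CPM and the larger mature cluster at 23.7 and 88.3 CPM. The immature neutrophils were low in both libraries, at 9.13 and 13.7 CPM, with overlapping intervals. In the control library the intervals of the first 4 clusters (MHC class II-high, macrophage-like, classical and stefin-high) overlapped from each to the next. In the OTM library classical cells stood above all others, with an interval of 389 to 429 CPM against 320 to 377 CPM for the MHC class II-high cluster. Macrophage-like cells held 27 and 24 UMIs of Il1a, too few to tell 65.2 from 95.5 CPM. At 1500 UMIs per cell, 6.29% of control and 33.9% of OTM classical cells had an Il1a UMI.

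Most Il1f9 UMIs lay in neutrophil-like cells in both libraries. Neutrophil-like cells were 41.5% of the control and 45.5% of the OTM cells and held 75.1% and 71.3% of all Il1f9 UMIs. It was at 821 CPM in control and 1946 CPM in OTM stefin-high neutrophils, at 384 and 996 CPM in the larger mature cluster, and at 57.6 and 130 CPM in the immature cluster. All 3 neutrophil clusters were thus higher in the OTM library, with ratios of 2.37, 2.59 and 2.25. The share of neutrophil-like cells with an Il1f9 UMI at 1500 UMIs was 34.3% in the control and 55.4% in the OTM library. Il1f9 was itself among the 10 leading genes of the stefin-high cluster, so its level there is a description of that cluster. The nonclassical and macrophage-like clusters came next, at 254 and 77.3 CPM in the control and 519 and 561 CPM in the OTM library, and they were also the monocyte-like and macrophage-like clusters with the most S100a8, at 104253 and 53513 CPM in the OTM library. Of the Il1f9 UMIs in monocyte-like cells, 82.6% (control) and 92.9% (OTM) lay in cells with over 1% S100a8 and S100a9, which were 17.9% and 37.3% of the cells.

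Il1rn, the antagonist, had the smallest ratio of the 5 genes in neutrophil-like and in monocyte-like cells. It was at 346 CPM in control and 406 CPM in OTM classical monocyte-like cells, at 440 and 563 CPM in the MHC class II-high cluster and at 372 and 484 CPM in the nonclassical cluster. The larger mature neutrophil cluster was at 435 and 538 CPM, within the range of the monocyte-like clusters. Stefin-high neutrophils had the highest level, 952 CPM in the control (interval 881 to 1027) and 1249 CPM in the OTM library (1181 to 1320). Immature neutrophils were at 79.0 and 65.2 CPM, the only neutrophil-, monocyte- or macrophage-like cluster with a lower value in the OTM library when all its cells were counted, and the interval of its ratio, 0.673 to 1.01, included 1. The unnamed cluster, in none of these classes, was at 436 and 211 CPM, a ratio of 0.485 (0.368 to 0.639). In nonclassical cells with at most 1% S100a8 and S100a9 Il1rn was also lower in the OTM library, with a ratio of 0.553 (0.297 to 0.997) from 37 and 18 UMIs, against 1.30 in all cells of that cluster. Cycling classical cells had the largest ratio, 2.63 (2.14 to 3.23), from 76.7 to 201 CPM. The macrophage-like cells were at 280 and 561 CPM, from 116 and 141 UMIs.

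Il1r2, the decoy receptor, was highest in mature neutrophil-like cells in both libraries, and classical monocyte-like cells came next in the OTM library only. Stefin-high neutrophils were at 2325 CPM in the control and 3394 CPM in the OTM library, the larger mature cluster at 1317 and 1876 CPM, and the immature cluster at 230 and 386 CPM. Classical monocyte-like cells were at 215 CPM in the control, seventh of the 9 clusters in order, and at 1219 CPM in the OTM library, next after the mature neutrophils, a ratio of 5.67 (5.23 to 6.15). The make-up of this cluster differed between the libraries. At the finer resolution of 1.0, a part led by Saa3 held 49.5% of its control and 71.8% of its OTM cells, and a part led by Ear1 46.5% and 23.9%. Il1r2 was at 203 and 1293 CPM, a ratio of 6.38 (5.7 to 7.16), in the former and at 217 and 1046 CPM, a ratio of 4.83 (4.24 to 5.51), in the latter, so the libraries differed within both. The ratios in the Saa3-led and the Ear1-led part were 6.71 (5.5 to 8.26) and 9.45 (7.04 to 12.9) for Il1a and 2.84 (2.75 to 2.92) and 3.53 (3.35 to 3.71) for Il1b. Those of Il1rn were 1.01 (0.916 to 1.11) and 1.52 (1.32 to 1.75). The other monocyte-like clusters differed less, at 292 and 448 CPM in the MHC class II-high, 811 and 1015 CPM in the nonclassical and 118 and 377 CPM in the cycling classical cluster. At 1500 UMIs, 19.7% of control and 66.3% of OTM classical cells held an Il1r2 UMI, and at least 2 UMIs were found in 5.22% and 47.3%. Neutrophil-like cells held 69.8% of all Il1r2 UMIs in the control and 52.2% in the OTM library, and monocyte-like cells 26.7% and 45.1%.

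Summed over classes, all 5 genes had higher CPM in the OTM library in neutrophil-like and monocyte-like cells, with intervals of the ratio above 1. In macrophage-like cells this held for all but Il1a, whose ratio of 1.47 had an interval of 0.809 to 2.64. In monocyte-like cells the ratio was 7.35 (6.53 to 8.30) for Il1a, from 41.1 to 302 CPM. It was 3.32 (3.26 to 3.38) for Il1b, from 1913 to 6352 CPM, and 3.37 (3.2 to 3.54) for Il1r2, from 265 to 893 CPM. Il1f9 had a ratio of 3.02 (2.72 to 3.36) and Il1rn one of 1.37 (1.30 to 1.44). In neutrophil-like cells the ratio was 4.36 (3.55 to 5.4) for Il1a, from 20 to 87.2 CPM, and 2.58 (2.44 to 2.73) for Il1f9, from 290 to 748 CPM. Il1b had 1.95 (1.88 to 2.02) there, Il1r2 1.51 (1.46 to 1.56) and Il1rn 1.28 (1.21 to 1.36). The make-up of the neutrophil-like class differed between the libraries. Stefin-high cells, highest in all 5 genes among neutrophil-like clusters, were 277 of 1177 control and 302 of 934 OTM cells. The larger mature cluster held 632 and 408 cells and the immature cluster 268 and 224. Il1b had ratios of 1.469, 1.703 and 1.996 within the immature, larger mature and stefin-high clusters. The part of make-up in the class ratios and shares was not tested. The intervals of neutrophil-like and monocyte-like cells did not overlap for Il1a, Il1b and Il1r2, whereas those of Il1rn did. For Il1a this did not hold with each library clustered alone, where the log2 ratio was 2.79 in neutrophil-like and 2.77 in monocyte-like cells, and with at least 200 genes per 1000 UMIs the values were 2.74 and 3.00. The intervals of Il1f9, 2.44 to 2.73 and 2.72 to 3.36, overlapped at their ends.

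**Figure D3:**
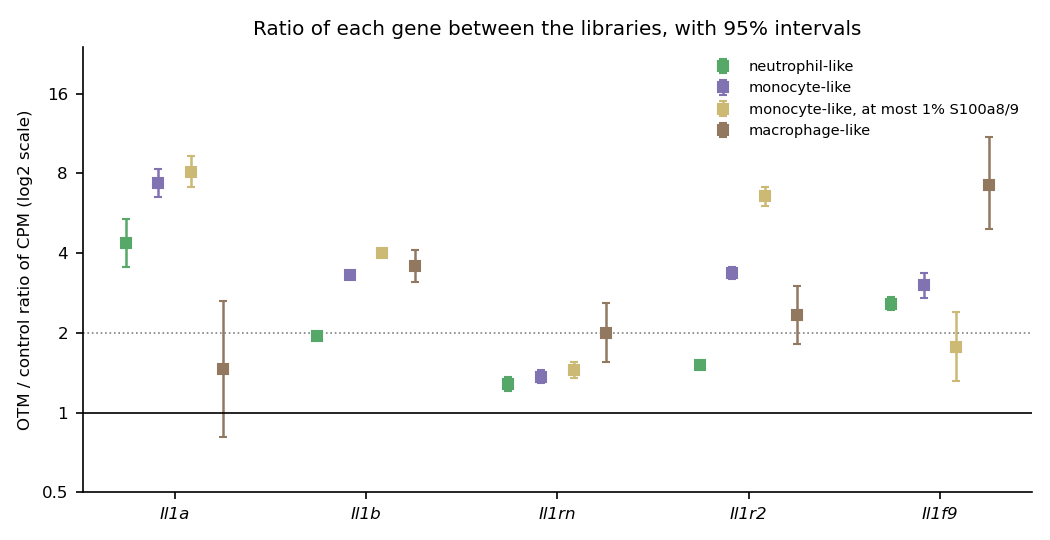
Ratio of CPM between the OTM and the control library (y axis, log2 scale) of the 5 genes (x axis) in neutrophil-like (green), monocyte-like (purple) and macrophage-like cells (brown), and in monocyte-like cells with at most 1% S100a8 and S100a9 (yellow), with 95% counting intervals. The solid line marks equal levels and the dotted line a 2-fold ratio. Il1r2 was higher (6.56) and Il1f9 lower (1.77) in the cells with little S100a8 and S100a9 than in all monocyte-like cells (3.37 and 3.02).

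A ratio of 2 or more was uncommon among all genes. Of 6266 genes with at least 50 UMIs in neutrophil-like cells, 1.68% were at least 2-fold higher and 4.36% at least 2-fold lower in the OTM library, and 2 of the 5 genes, Il1a and Il1f9, were among the former. In monocyte-like cells the shares were 2.18% and 4.78% of 8267 genes, and 4 of the 5 genes, all but Il1rn, were at least 2-fold higher. Il1f9 was not among them with at least 200 genes per 1000 UMIs (log2 ratio 0.74) or without Scrublet doublets (0.92), which were all OTM cells. Nor was it among them in cells with at most 1% S100a8 and S100a9 (0.82), against 1.59 in all monocyte-like cells. In macrophage-like cells they were 6.18% and 5.36% of 1587 genes, and 4 of the 5, all but Il1a, were at least 2-fold higher, with intervals that included 2 for Il1rn (1.56 to 2.58) and Il1r2 (1.81 to 3.02). None of the 5 was 2-fold lower in any of the 3 classes. Only 13 genes in monocyte-like cells and 11 in neutrophil-like cells had a higher ratio than Il1a, and 49 had a higher ratio than Il1r2 in monocyte-like cells. The median gene had a log2 ratio of -0.17 in monocyte-like and -0.11 in neutrophil-like cells. With TMM scaling, which recentres this, the ratio of Il1b in neutrophil-like cells passed 2-fold (log2 ratio 1.07 in place of 0.96). It was also 1.56 on the log2 scale with the literal form of the cell filter, at least 200 genes per 1000 UMIs, under which 750 control and 310 OTM cells were neutrophil-like. The log2 ratio of Il1a in neutrophil-like cells was 2.74 with that filter and 2.79 with each library clustered alone, in place of 2.12.

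In monocyte-like cells with at most 1% S100a8 and S100a9 (1195 control and 635 OTM cells), the ratios of Il1a, Il1b and Il1r2 were higher and that of Il1f9 was lower than in all monocyte-like cells. Il1b was at 1869 CPM in the control and 7508 CPM in the OTM library, a ratio of 4.02 (3.93 to 4.10), and Il1a at 43.1 and 349 CPM. Il1r2 was at 112 and 736 CPM, a ratio of 6.56 (6.04 to 7.14), and in classical cells alone at 119 and 1149 CPM, a ratio of 9.66 (8.61 to 10.9). Il1f9 was at 13.1 and 23.2 CPM (78 and 113 UMIs), and its ratio, 1.77 (1.31 to 2.39), no longer reached 2. In classical cells with this limit Il1f9 had 40 and 47 UMIs, with a ratio of 1.34 and an interval of 0.857 to 2.09. In nonclassical cells with the limit, Il1r2 was at 142 and 293 CPM (27 and 49 UMIs), a ratio of 2.06 (1.265 to 3.435). It was at 127 and 342 CPM in the MHC class II-high and at 85.3 and 347 CPM in the cycling classical cluster. Il1b was then at 2347 and 8785 CPM in nonclassical and at 2288 and 8734 CPM in classical cells. In all cells the nonclassical cluster was below the classical one. None of the 14 neutrophil markers was at 0 in monocyte-like cells with this limit. Their summed level was 4713 and 15277 CPM, against 132301 and 141005 CPM in neutrophil-like cells. Chil3, one of these markers that monocytes also express, made up 1997 and 12099 CPM of the sum, and the other 13 together 2716 and 3178 CPM. These 13 did not move together. Mmp8, the gene most like Il1r2 over the clusters, was at 130 and 422 CPM and Lcn2 at 139 and 398 CPM, whereas Camp was at 753 and 559 CPM and Retnlg at 726 and 639 CPM. The part of neutrophil RNA in the Il1r2 values was not tested. Per 100 S100a8 UMIs there were 0.767 Il1r2 UMIs in neutrophil-like OTM cells and 34.8 in the classical OTM cells with the limit. The limit itself keeps S100a8 low in the latter, so such values cannot show the source of a transcript. The values were 0.0467 and 14 for Il1a, 0.841 and 265 for Il1b, 0.232 and 12.5 for Il1rn, and 0.401 and 0.597 for Il1f9.

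In macrophage-like cells with the same limit only 43 control and 13 OTM cells remained. Il1b was at 284 and 2305 CPM there, from 84 and 286 UMIs, a ratio of 8.11 (6.33 to 10.5). Of the OTM UMIs, 66.8% lay in the 2 of 13 cells with the most, so the ratio rested largely on these. The counting interval does not cover such differences between cells. Il1b was the only one of the 5 that was still at least 2-fold higher. Il1rn had a ratio of 1.98 (1.29 to 3.00) and Il1r2, from 15 and 9 UMIs, one of 1.43 (0.551 to 3.48). Il1a had 12 and 2 UMIs, with a ratio of 0.397 (0.0431 to 1.78). Il1f9 was left with 3 and 1 UMIs, so the Il1f9 ratio of 7.26 (4.92 to 11) in all macrophage-like cells rested on cells with over 1% S100a8 and S100a9, which held 99.3% of its OTM UMIs. The macrophage-like cluster had median S100a8 and S100a9 shares of 0.452% in the control and 6.05% in the OTM library. Its summed level of the 14 neutrophil markers was 16817 and 35114 CPM.

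**Figure D4:**
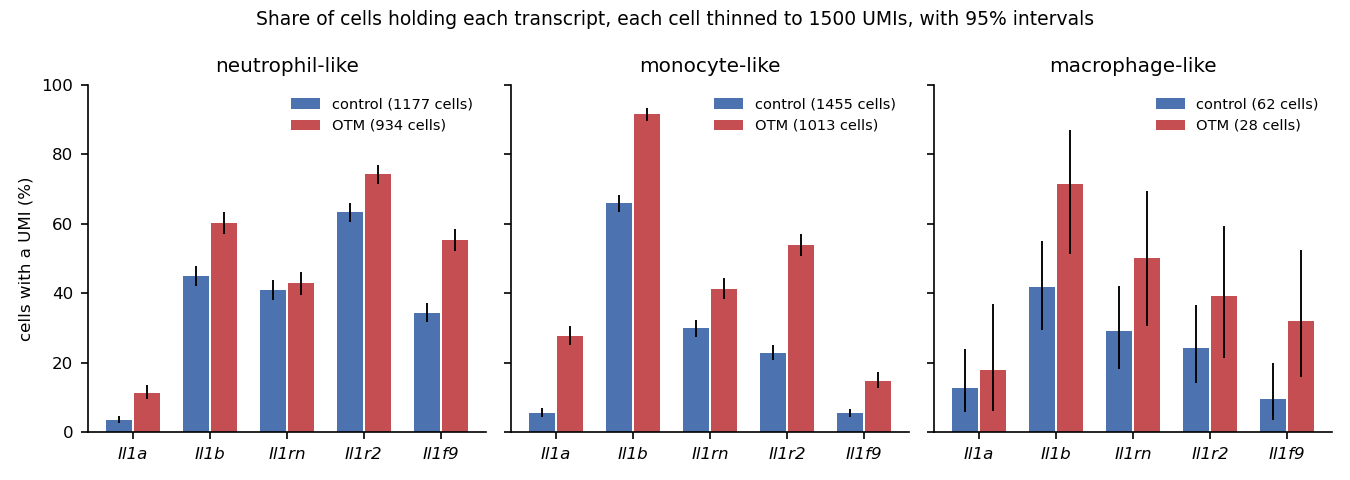
Share of cells with a UMI of each gene (y axis, %) in neutrophil-like, monocyte-like and macrophage-like cells of the control (blue) and OTM (red) library, each cell thinned to 1500 UMIs, with Clopper-Pearson 95% intervals. In monocyte-like cells the share with Il1b was 65.8% and 91.5% and that with Il1r2 22.8% and 53.8%, while the share with Il1rn in neutrophil-like cells was 41% and 42.8%.

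The shares of cells with a transcript differed in the same direction. At 1500 UMIs per cell, at which no cell had to be left out, the share of monocyte-like cells with Il1b was 65.8% (63.3 to 68.3) in the control and 91.5% (89.6 to 93.1) in the OTM library. For Il1r2 it was 22.8% and 53.8%, a difference of 31.0 percentage points (27.1 to 34.8), and for Il1a 5.64% and 27.7%. In neutrophil-like cells the largest difference was that of Il1f9, 21 points (16.7 to 25.2). The share with Il1rn differed by 1.88 points there, with an interval of -2.42 to 6.18, so a difference was not detectable at this depth. Without thinning, 81.5% and 98.3% of monocyte-like cells had an Il1b UMI and 13.5% and 30.1% an Il1f9 UMI. As a reference for free RNA, the shares were taken in granulocyte progenitor-like cells (65 and 29 cells, median 11476 and 12981 UMIs), since the main clustering had no B cell-like cluster. They were deeper than classical monocyte-like cells (median 3984 and 7515 UMIs). If droplets hold like amounts of free RNA, thinning leaves less of it in deeper cells, so the progenitor shares may be too low as a reference. At 1500 UMIs, 12.3% and 31.0% of these progenitors had an Il1b UMI, 3.08% and 13.8% an Il1r2 UMI, 3.08% and 13.8% an Il1f9 UMI, and 0 of 65 and 0 of 29 an Il1a UMI. A count of 0 allows a share of up to 4.62% and 10.3% there. Droplets with at least 3 of 6 B cell markers were only 19 and 7, and 21.1% and 71.4% of them had an Il1b UMI. CPM in the progenitors also differed between the libraries, with ratios of 4.17 (3.10 to 5.67) for Il1b and 3.52 (2.13 to 5.95) for Il1r2. Il1f9 had 25.2 (8.04 to 127), from 3 and 42 UMIs, and Il1rn 1.16 (0.492 to 2.63). In the B cell marker droplets the ratio was 9.72 (6.955 to 13.9) for Il1b and 3.39 (1.81 to 6.67) for Il1r2. How much free RNA added to the ratios of the 3 classes was not tested. The Il1f9 shares of 5.50% (4.38 to 6.80) and 14.9% (12.8 to 17.2) in monocyte-like cells lay within the wide intervals of the progenitors, 0.375 to 10.7% and 3.89 to 31.7%, so expression there was not separable from that reference at this depth. A B cell-like cluster appeared with at least 200 genes per 1000 UMIs (64 and 22 cells, median 3314 and 5506 UMIs), and 29.7% and 45.5% of its cells had an Il1b UMI, 31.2% and 40.9% an Il1r2 UMI, 23.4% and 31.8% an Il1rn UMI and 14.1% and 18.2% an Il1f9 UMI. Of the cells of this cluster, 27.9% had over 5% of their UMIs from S100a8 and S100a9, and the part of neutrophil RNA in its shares was not tested. The monocyte-like shares compared with it were those under the main filter on cells. The monocyte-like shares with Il1b were above those of the cluster. Those with Il1f9 were below them in both libraries and that with Il1r2 was below it in the control.

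The balance between Il1b and its antagonists was compared as UMIs of one gene per 100 UMIs of the other, which does not depend on the depth of the cells. The 3′ libraries count 1 end per transcript, but capture can differ between genes, so only the same pair was compared between groups. In monocyte-like cells there were 15.9 Il1rn UMIs per 100 Il1b UMIs in the control (15.2 to 16.6) and 6.54 in the OTM library (6.32 to 6.76). In neutrophil-like cells there were 41.9 (39.6 to 44.2) and 27.6 (26.5 to 28.8). The antagonist was thus lower relative to Il1b in the OTM library in both classes, also in the immature, larger mature and stefin-high neutrophils taken alone, at 30.1 and 16.9, 53.5 and 38.9, and 34.8 and 22.9. The decoy receptor differed between clusters. Per 100 Il1b UMIs, classical monocyte-like cells held 9.28 Il1r2 UMIs in the control (8.57 to 10.0) and 15.5 in the OTM library (15.1 to 16), whereas the MHC class II-high cluster held 11.7 and 5.93. Stefin-high neutrophils held 84.9 and 62.1, nonclassical cells 42.2 and 23.6, and cycling classical cells 17.5 and 11.7. Over all monocyte-like cells the values, 13.9 (13.2 to 14.5) and 14.1 (13.7 to 14.4), had overlapping intervals. In monocyte-like cells with at most 1% S100a8 and S100a9, the values were 6.01 and 9.80. Nonclassical cells with this limit held 27 Il1r2 and 447 Il1b UMIs in the control and 49 and 1471 in the OTM library.

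The genes were often found in the same cells. In neutrophil-like cells at 1500 UMIs, 55.9% of control cells with Il1b also had Il1rn, against 28.8% of cells without Il1b. In the OTM library these shares were 56.6% and 22.0%. Il1r2 was found in 87.0% of OTM neutrophil-like cells with Il1b and in 54.8% of those without, and Il1f9 in 65.7% of those with Il1r2 and in 25.7% of those without. Within the stefin-high cluster of the OTM library, 96.0% of cells with Il1b and 92.9% of those without had Il1r2, and 70.8% and 60.7% had Il1rn, and the intervals of these differences, -3.84 to 19.6 and -8.61 to 30.9 points, included 0. In that cluster 87.4% of OTM cells held at least 3 of the 5 transcripts, against 67.9% in the control.

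**Figure D5:**
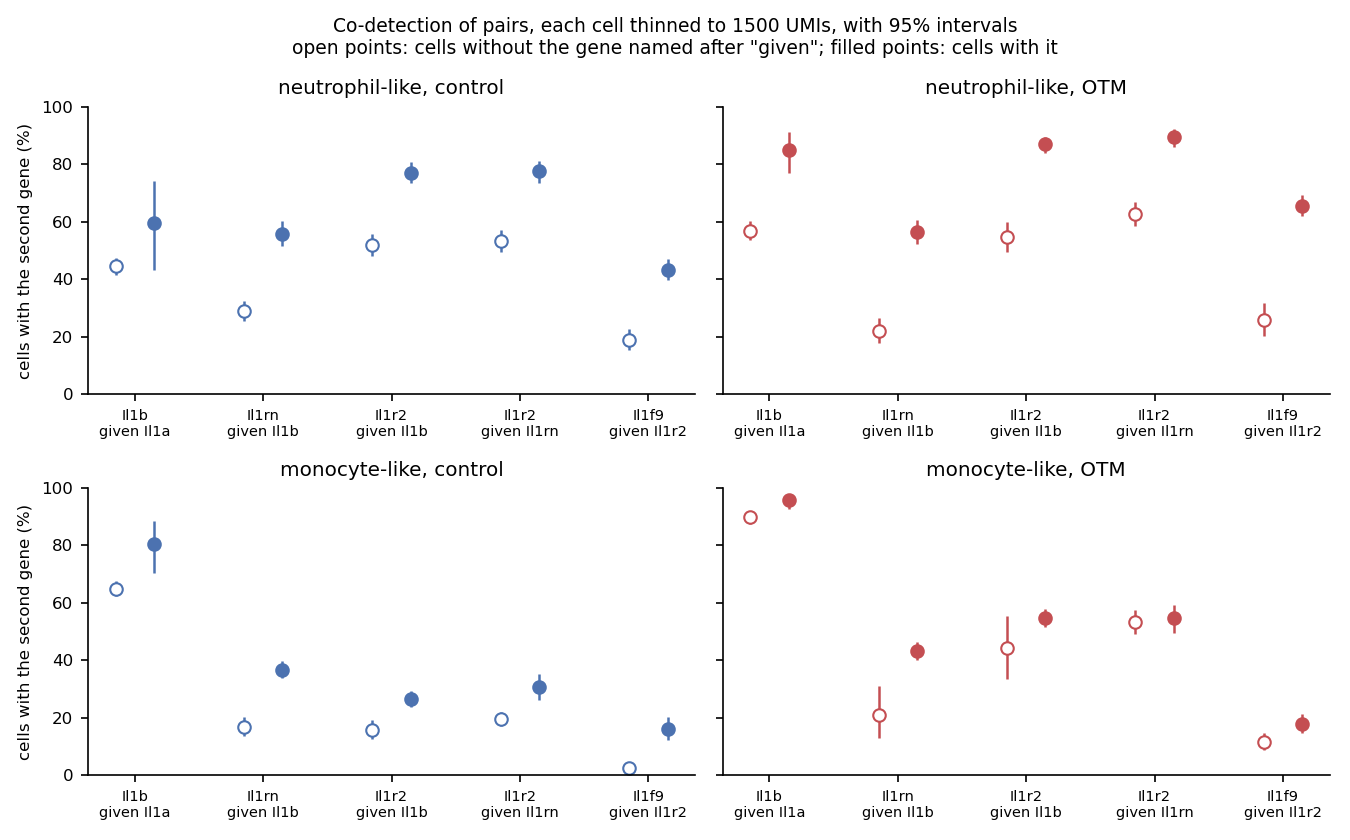
Share of cells with the second gene (y axis, %) among cells without (open points) and with (filled points) the gene named after "given" on the x axis, in neutrophil-like (top) and monocyte-like (bottom) cells of the control (blue) and OTM (red) library, each cell thinned to 1500 UMIs, with Clopper-Pearson 95% intervals. In OTM monocyte-like cells Il1r2 was found in 54.5% of cells with and 53.3% of cells without Il1rn, whereas in OTM neutrophil-like cells these shares were 89.5% and 62.7%.

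In monocyte-like cells Il1a was found where Il1b was. In the control library 80.5% of the 82 cells with Il1a had Il1b (70.3 to 88.4), against 65.0% of the others, and in the OTM library 95.7% and 89.9%. Il1rn was found in 43.1% of OTM cells with Il1b and in 20.9% of those without. In OTM cells with at most 1% S100a8 and S100a9 this difference was 14.4 points, with an interval of -0.499 to 26.3 that included 0. In control cells with that limit it was 18.6 points (13.6 to 23.3). Il1r2 was found in 54.5% of OTM monocyte-like cells with Il1rn and in 53.3% of those without, a difference of 1.27 points (-5.11 to 7.62). The pair Il1r2 and Il1f9 was found together in control monocyte-like cells, with Il1f9 in 16% of cells with Il1r2 and in 2.40% of those without. In cells with at most 1% S100a8 and S100a9 these shares were 1.17% and 1.37%, a difference of -0.20 points (-1.57 to 2.86). At least 3 of the 5 transcripts were found in 12.2% of control and 41.5% of OTM monocyte-like cells, and none of the 5 in 23.1% and 3.06%.

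Genes with a like pattern were sought over 20 groups, the clusters of each library with at least 20 cells, among 6476 genes with at least 200 UMIs. Pearson's r of log2(CPM + 10) is given as a description, since the groups share libraries, depth and free RNA. Il1b and Il1a were close to each other (r = 0.897), Il1b being the gene most like Il1a. Next to Il1a came Csrnp1, Arg2, Ehd1 and Igfbp6 (r = 0.882 to 0.896). Il1b was most like the chemokine gene Cxcl2 (r = 0.955), followed by Casp4, a caspase of the noncanonical inflammasome, by the death receptor gene Fas, and by Csrnp1 and Ehd1. Il1rn was most like Rab20, Litaf, Plek, Fth1 (ferritin heavy chain) and Nfkbiz, an inhibitor of NF-kB family members (r = 0.958 to 0.974). Il1r2 was most like Mmp8 (neutrophil collagenase), Cd33, Cd300lf, Samsn1 and Stx11 (r = 0.958 to 0.973). Il1f9 was most like Fpr1, a formyl peptide receptor of neutrophils, and Gm5483, Grina, BC100530 and Rhov (r = 0.915 to 0.945). Among the 5 genes, Il1r2 was closest to Il1f9 (r = 0.901) and Il1a farthest from Il1f9 (r = 0.439).

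The other genes of the pathway were taken from 5 lists with 55 symbols. Il36a, Il36b and Il36rn were listed also under their older symbols Il1f6, Il1f8 and Il1f5, so 52 were distinct genes, all of them in the tables. In neutrophil-like cells 37 of them had at least 50 UMIs, 2 were at least 2-fold higher in the OTM library and none was 2-fold lower (1.68% and 4.36% of all genes), with a median log2 ratio of 0.13 against -0.11 over all genes. In monocyte-like cells these counts were 4 higher and none lower of 43, with a median of 0.25 against -0.17 and 2.18% and 4.78% of all genes past 2-fold. In macrophage-like cells 2 of 14 were higher and none lower, against 6.18% and 5.36% of all genes, with a median of 0.58 against -0.15. Of the 16 signalling genes, only the adaptor gene Myd88 passed 2-fold with at least 50 UMIs, in neutrophil-like cells, from 29.3 to 71.9 CPM. None of the 11 genes for processing of IL-1 precursors, among them Casp1, Nlrp3 and Gsdmd, passed 2-fold with at least 50 UMIs in any class. The pathway values here and below cover all cells of a class, without the limit on S100a8 and S100a9.

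Among feedback genes and targets, Il6 was at 169 CPM in control and 474 CPM in OTM monocyte-like cells and Tnf at 46.6 and 123 CPM, ratios of 2.80 and 2.65. In neutrophil-like cells Il6 was lower in the OTM library, at 10.0 and 5.67 CPM, a ratio of 0.566 (0.361 to 0.878). Socs3, an inhibitor of cytokine signalling, was at 35.3 and 97.1 CPM in neutrophil-like and at 130 and 271 CPM in macrophage-like cells. Ptgs2, the inducible cyclooxygenase, was at 60.4 and 219 CPM in macrophage-like cells, from 25 and 55 UMIs, but at 117 and 80.1 CPM in neutrophil-like cells, a ratio of 0.684 (0.608 to 0.77). Of the ligands, Il1f6 (IL-36α) had 6 and 46 UMIs in monocyte-like cells, and of the receptors the IL-18 receptor chain gene Il18rap was at 5.46 and 13.6 CPM there. Macrophage-like cells had a median S100a8 and S100a9 share of 0.452% in the control and 6.05% in the OTM library. The part of neutrophil RNA in the pathway values was not tested.

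The receptors for these ligands had few UMIs in the sorted cells. Il1r1, the signalling receptor of IL-1, had 0 UMIs in control and 1 UMI in OTM neutrophil-like cells, and 24 and 18 UMIs in monocyte-like cells (3.19 and 2.04 CPM). Il1rl2, the receptor for IL-36γ, had 4 and 1 UMIs in neutrophil-like and 6 and 7 UMIs in monocyte-like cells. The accessory chain gene Il1rap was at 11.8 and 13.5 CPM in neutrophil-like and at 9.85 and 9.42 CPM in monocyte-like cells. For comparison, Il1r2 had 5209 and 9095 UMIs in neutrophil-like and 1994 and 7867 UMIs in monocyte-like cells.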

How the data were processed

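Single cells sorted as F4/80+CD11b+ were measured with 10x Genomics 3′ v2 chemistry in 1 control and 1 OTM library. Per the submitters' processing notes and the methods, the authors aligned reads with Cell Ranger 3.0.0 to mm10 and analysed them in Seurat 3.0.0. The deposited tables hold raw UMI counts per gene and barcode (2863 control and 2058 OTM barcodes, 14620877 and 16500733 UMIs). They hold fewer barcodes than the cells stated by the study, and the cause is not known. Cells with at least 200 genes and at most 5% mitochondrial UMIs were kept, whereas the methods state 200 genes per 1000 UMIs, which was run as an alternative and left 310 OTM cells called neutrophil-like in place of 934. Libraries were joined by canonical correlation analysis (Seurat 5.3.0, 20 dimensions, 2000 features without the 5 genes, resolution 0.6). Clusters were named from marker lists by their mean log2 fold over other cells. The thresholds of naming, the 1% limit on S100a8 and S100a9, the members and the gene lists were chosen with earlier results of these data known.

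Levels are CPM from summed UMIs with exact Poisson intervals. Ratios have exact conditional binomial intervals, log2 ratios have 0.5 UMIs added, and shares have Clopper-Pearson intervals. Differences of shares have intervals combined from both shares. Intervals cover counting error only. Doublets were kept in the main analysis (Scrublet in scanpy 1.11.5 marked 0 control and 137 OTM cells). TMM factors came from edgeR 4.0.16. Named genes were the 5 members, the 5 genes most like each, and pathway genes with at least 50 UMIs and a 2-fold ratio in a class. Only the ratio, its interval and the 2-fold rule were tested on simulated data. These were Poisson counts of the neutrophil-like and monocyte-like sums, without variation between cells or libraries. Sequences came from RefSeq (GRCm38.p6).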

Additional observations from a re-analysis of the deposited data

Results flagged for a closer look

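Il1rn in immature neutrophil-like cells was the only ratio among the named neutrophil-, monocyte- and macrophage-like clusters with at least 50 UMIs whose sign went against that of the other 7 clusters. Its log2 ratio between the OTM and the control library was -0.28, from 199 control and 190 OTM UMIs, whereas the other clusters lay between 0.23 and 1.39. The difference between the clusters was not tested, since each condition was 1 library, and the counting interval of the ratio in immature neutrophil-like cells (0.673 to 1.01) included 1. The unnamed cluster (65 control and 41 OTM cells) was left out of this comparison. Its ratios were 0.485 (0.368 to 0.639) for Il1rn and 0.814 (0.712 to 0.932) for Il1b. The intervals of Il1a, Il1r2 and Il1f9 there included 1.

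In nonclassical monocyte-like cells with at most 1% S100a8 and S100a9, from 37 and 18 UMIs, the log2 ratio of Il1rn was -0.83, against 0.38 in all cells of that cluster.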

How the results depend on the processing

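Each condition was 1 library, so no alternative adds replication, and no value separates the force from the animals or the library. No paired analysis was possible because each condition has 1 library. No alternative turned the direction of any of the 140 recomputed ratios, all of them of the neutrophil-like or monocyte-like class as a whole. A total of 82 stayed within the counting interval of the reported ratio and 58 lay outside it. The cause of the moves was not tested. In smaller groups the limit on S100a8 and S100a9 did turn ratios. That of Il1rn in the nonclassical cluster was 1.30 in all cells and 0.553 with the limit. In macrophage-like cells Il1a had 1.47 and 0.397 and Il1f9 7.26 and 0.794, with few UMIs under the limit. The top 5% of Scrublet scores, the limit on S100a8 and S100a9 and leaving out the nonclassical cluster were chosen after seeing the data, as were the parts of the classical cluster and the B cell-like reference.

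With at least 200 genes per 1000 UMIs, the log2 ratio was 2.74 for Il1a, 1.56 for Il1b, 0.72 for Il1rn, 0.78 for Il1r2 and 1.56 for Il1f9 in neutrophil-like cells, and 1.92 for Il1b, 1.89 for Il1r2 and 0.74 for Il1f9 in monocyte-like cells. With each library clustered alone, the log2 ratio was 2.79 for Il1a, 1.41 for Il1b, 0.87 for Il1rn, 0.99 for Il1r2 and 1.82 for Il1f9 in neutrophil-like cells. As a mean over cells, the log2 ratio was 2.44 for Il1a and 1.15 for Il1b in neutrophil-like cells, and 0.37 for Il1rn, 1.86 for Il1r2 and 1.37 for Il1f9 in monocyte-like cells. With at least 2500 UMIs per cell, the log2 ratio was 1.23 for Il1b, 0.67 for Il1rn, 0.88 for Il1r2 and 1.77 for Il1f9 in neutrophil-like cells. At resolution 0.3, the log2 ratio was 1.03 for Il1b in neutrophil-like cells. Without Scrublet doublets, the log2 ratio was 1.15 for Il1b in neutrophil-like cells, and 1.83 for Il1b, 0.37 for Il1rn and 0.92 for Il1f9 in monocyte-like cells. Scrublet marked 0 control and 137 OTM cells, so this setting removed cells from the OTM library only. It left 883 monocyte-like OTM cells in place of 1013, and 934 neutrophil-like ones. With TMM scaling, the log2 ratio was 1.07 for Il1b, 0.47 for Il1rn, 0.70 for Il1r2 and 1.48 for Il1f9 in neutrophil-like cells, and 1.89 for Il1b, 0.61 for Il1rn, 1.91 for Il1r2 and 1.75 for Il1f9 in monocyte-like cells. With median-of-ratios scaling, the log2 ratio was 1.07 for Il1b, 0.47 for Il1rn, 0.70 for Il1r2 and 1.47 for Il1f9 in neutrophil-like cells, and 1.90 for Il1b, 0.62 for Il1rn, 1.92 for Il1r2 and 1.76 for Il1f9 in monocyte-like cells. Without the top 5% of Scrublet scores, the log2 ratio was 1.05 for Il1b, 0.27 for Il1rn, 0.48 for Il1r2 and 1.26 for Il1f9 in neutrophil-like cells, and 1.85 for Il1b and 2.09 for Il1r2 in monocyte-like cells. With the genes among the clustering features, the log2 ratio was 0.53 for Il1r2 in neutrophil-like cells. Without hemoglobin, ribosomal and mitochondrial genes, the log2 ratio was 1.67 for Il1b in monocyte-like cells. In cells with at most 1% S100a8 and S100a9, the log2 ratio was 2.01 for Il1b, 0.54 for Il1rn, 2.71 for Il1r2 and 0.82 for Il1f9 in monocyte-like cells. Without the nonclassical cluster, the log2 ratio was 1.83 for Il1b, 2.05 for Il1r2 and 1.39 for Il1f9 in monocyte-like cells. Thinned to 2500 UMIs, the difference between the libraries in the share of neutrophil-like cells with a UMI was 23.4 points for Il1b, 9.36 for Il1rn, 15.5 for Il1r2 and 26.3 for Il1f9, and in monocyte-like cells 27.2 for Il1a and 22.2 for Il1b. Unthinned it was 13.8 for Il1a, 25.6 for Il1b and 7.94 for Il1rn in neutrophil-like cells, and 42.4 for Il1a, 16.8 for Il1b, 24.6 for Il1rn, 38.7 for Il1r2 and 16.6 for Il1f9 in monocyte-like cells. For pairs of genes at 2500 UMIs, the difference between cells with and without the first gene was 40.3 points for Il1b given Il1a in control neutrophil-like cells, 24.4 for Il1r2 given Il1b and 46.9 for Il1f9 given Il1r2 in OTM neutrophil-like cells, and 13 for Il1f9 given Il1r2 in OTM monocyte-like cells. With genes of at least 10 UMIs, the numbers 2-fold higher and lower were 306 and 912 in neutrophil-like, 408 and 963 in monocyte-like and 349 and 818 in macrophage-like cells, more genes being tested.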
